A study of Mus musculus with 8 samples.

Results

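Cultures of satellite cells, from which skeletal muscle regenerates, were compared between Dnmt3a-KO and wild-type (WT) mice after 2 days in differentiation medium. The comparison rests on the arrays labelled WT day2 and Dnmt3a-KO day2, which are 2 of the 8 arrays of the series and were chosen by those labels alone. Per the labels, both came from the extensor digitorum longus, a fast muscle of the hindlimb, of male mice aged 8 weeks, with WT littermates as the controls. Both were grown for 5 days in growth medium and replated at matched cell numbers before differentiation medium was added, so the groups differ by genotype and share every other listed step. The other 6 arrays hold the same genotypes on days 4, 5 and 6. The sources used here do not state how the Dnmt3a allele was deleted, in which cells, or how many mice went into an array.

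Dnmt3a encodes a de novo DNA methyltransferase, which places methyl groups on CpG sites that carried none. When growth factors are withdrawn, dividing myoblasts leave the cell cycle, switch on myogenin and the sarcomere genes, and fuse into multinucleated myotubes. Genes for DNA replication and for mitosis are silenced together in that step, largely through E2F factors and the retinoblastoma protein family.

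Each genotype had 1 array on day 2, so no difference between the day 2 arrays has a test. Signals are given as scaled values, on which 100 stands for an array's 75th percentile over its 43020 spots that are not controls, and differences are Dnmt3a-KO minus WT on the log2 scale. The 75th percentile was 1528 intensity units on the WT array and 1482 on the Dnmt3a-KO array, and 65.1% and 67.4% of the spots were well above background by the software's flag. Of 31888 genes on the array, each represented by its brightest probe, 20053 were well above background on both arrays, 1176 on the Dnmt3a-KO array alone and 377 on the WT array alone. For a gene seen on 1 array, the fold is a bound, taken against the dim probe's own signal or the lowest signal well above background, whichever is higher. Among 277 probes printed at 10 positions, the SD of the difference between single spots had a median of 0.093. With the probes split into 3 equal groups by brightness, it was 0.15 in the dimmest group and 0.077 in the brightest. Different probes of a gene differed by a median SD of 0.079 over 4119 genes, and the error that the software assigns to a difference had a median of 0.20. These spreads are technical, and none of them holds the variation between cultures or mice. Transcripts of the Y chromosome (Ddx3y, Eif2s3y, Kdm5d, Uty) were seen on 2 of 2 day 2 arrays, as the male label says, and on 0 of the 6 later arrays, of which 6 showed Xist. The day 2 arrays and the later ones therefore differ in more than time, and their part in any difference between days was not tested.

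The deleted gene was the first check of the labels. Its probe, on chromosome 12 at 3914320 to 3914379 (mm9, the build named in the file headers), read 51.9 in WT and 24.0 in Dnmt3a-KO, a difference of -1.11, or 46.2% of the WT signal. On days 4, 5 and 6 the same probe was at -2.34, -2.21 and -2.39, so the difference was smallest on day 2. No source used here says whether that stretch was deleted, so the probe is a limited check. Cell type markers followed the label in part. Among satellite cell and myoblast markers, 20 of 22 were well above background on both arrays, including Pax7, the transcription factor of satellite cells, at 105 and 78.7, and the cadherin gene Cdh15 at 5570 and 4836. Myf5 and the calcitonin receptor gene Calcr were well above background on neither.

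Most genes had close signals on both arrays. The median difference was 0.0059, the middle 50% of genes lay between -0.14 and 0.15, and 90% lay between -0.56 and 0.56. At least 2-fold higher in Dnmt3a-KO were 511 genes, 2.37% of the 21606 seen on at least 1 array, of which 308 were measured on both arrays and 203 are bounds. At least 2-fold lower were 439 genes, or 2.03%, of which 263 were measured on both and 176 are bounds. At 1.5-fold the shares were 6.00% higher and 5.79% lower. Dim genes passed 2-fold more often, with 4.44% in the dimmest of 10 equal groups of genes against 0.299% in the brightest. At the 2-fold line, Fam20a at 1.0005 lay just inside and AI790276 at 0.99999 just outside on the higher side. On the lower side, 4930579G24Rik at -1.0008 lay just inside and Kif22, a mitotic kinesin gene, at -0.999 just outside.

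Replicate spots gave 248 genes a spread of their own on each array. The spots of both arrays did not overlap for 86 of them, or 34.7%, so separation of spots alone was common and set no threshold. Bub1, a mitotic checkpoint kinase gene, ran from 34.3 to 41.3 over 10 WT spots, with a median of 38.6, and from 16.2 to 19.3 in Dnmt3a-KO, with a median of 18.4. Every Bub1 spot of Dnmt3a-KO was thus below every WT spot. The chemokine gene Ccl2 ran the other way, from 16.7 to 19.2 in WT, with a median of 17.8, and from 49.5 to 57.4 in Dnmt3a-KO, with a median of 55.2. Myogenin, encoded by Myog, ran from 8493 to 9667 in WT and from 8275 to 10302 in Dnmt3a-KO, and the ranges overlapped.

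**Figure D1:**
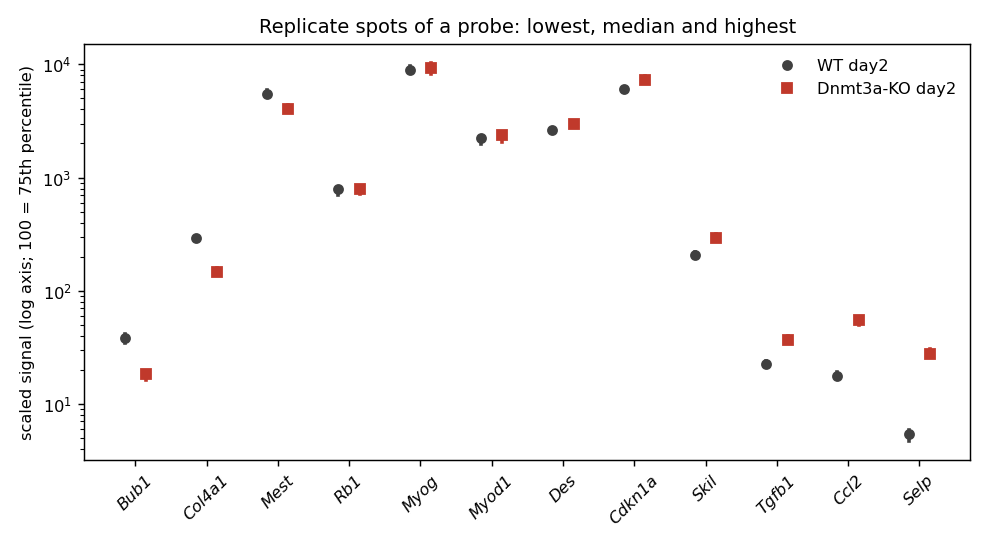
Scaled signal (log axis) of 12 genes whose probe is printed at up to 10 positions, on WT day2 (circles) and Dnmt3a-KO day2 (squares). Symbols are medians and bars run from the lowest to the highest usable spot, and the bars of Bub1 lie apart (34.3 to 41.3 in WT, 16.2 to 19.3 in Dnmt3a-KO) while those of Myog overlap.

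The clearest pattern on day 2 lay in the cell cycle. Of 43 DNA replication genes measured on both arrays, 43 were lower in Dnmt3a-KO, beside 48.8% of all genes, with a median difference of -0.80. Of 47 mitosis genes, 46 were lower, with a median of -0.93, a 1.90-fold lower signal. At least 1.5-fold lower were 33 of the 44 replication genes seen on at least 1 array and 45 of 47 mitosis genes, beside 5.79% of all genes, while 5 and 15 were at least 2-fold lower, beside 2.03%. In these whole cultures, fewer dividing cells and less of each transcript per dividing cell cannot be told apart.

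**Figure D2:**
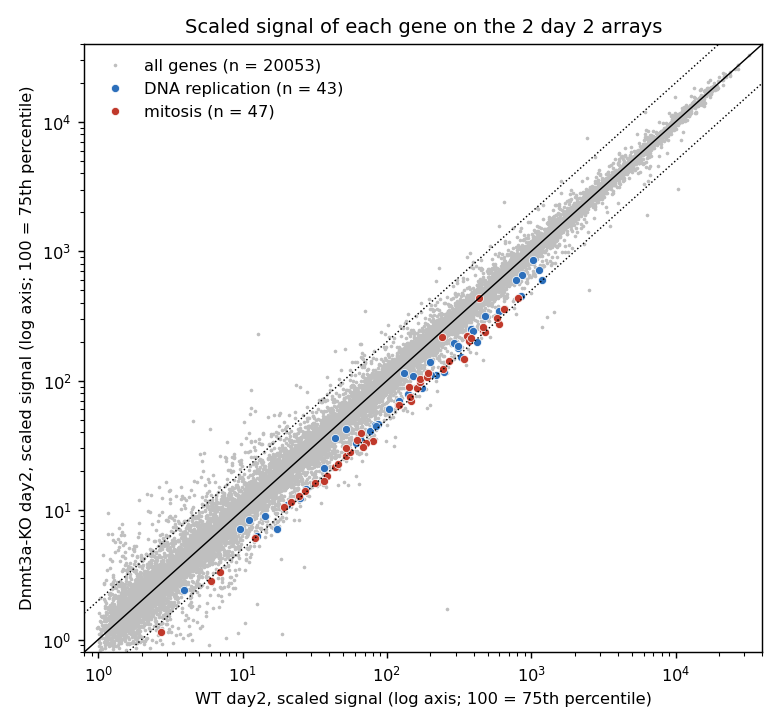
Scaled signal of 20053 genes well above background on both arrays, WT day2 against Dnmt3a-KO day2 on log axes, with the line of equality (solid) and 2-fold lines (dotted). The 43 replication genes (blue) all lie below the line of equality and 46 of the 47 mitosis genes (red) do so, most between it and the lower 2-fold line or close to that line.

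Genes that license origins and form the replicative helicase had a median of -0.83 over 17 members. Mcm3, a subunit of the MCM helicase, read 418 in WT and 199 in Dnmt3a-KO, a difference of -1.07 that its second probe shared in direction. Mcm6 read 1181 and 603 and Mcm5 217 and 111, both with differences of -0.97. The loading factor gene Cdc6 read 12.6 and 6.31 (-0.99). The members of this group closest to 0 were the GINS complex genes Gins4, at -0.21, and Gins3, at -0.25, and the helicase subunit Mcm7, at -0.39. The last of these read 789 and 600, so the subunits of the same hexamer differed by unequal amounts.

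Polymerase and fork genes had a median of -0.77 over 17 members. Dscc1, a subunit of an alternative clamp loader, had the lowest value of the list, at 17.4 and 7.18, a difference of -1.28. Chaf1b, a histone chaperone of the fork, read 327 and 152 (-1.10), and the sliding clamp gene Pcna 852 and 451 (-0.92). The primase gene Prim1 read 175 and 88.0 (-0.99). The 6 genes of nucleotide supply had a median of -0.73. Thymidine kinase, Tk1, read 247.5 and 117 (-1.08), and the ribonucleotide reductase subunits Rrm2 and Rrm1 differed by -0.65 and -0.40. Recombination genes were in the same range, with the exonuclease gene Exo1 at 86.7 and 46.5 (-0.90).

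Mitotic kinases, cyclins and phosphatases had the lowest median of the cell cycle groups, -1.03 over 14 members. Cdk1, the kinase that drives entry into mitosis, read 80.7 in WT and 34.2 in Dnmt3a-KO (-1.24), and its 2 probes had the same sign. Its partner cyclin gene Ccnb1 read 244 and 123 (-0.99), with the same sign in 3 of 3 probes. Plk1, a mitotic kinase, read 464 and 245 (-0.92), Aurka 271 and 143 (-0.93), and the checkpoint kinase Ttk 6.01 and 2.86 (-1.07). Aurkb was well above background on neither array. Cdc25b, a phosphatase that activates Cdk1, was the exception of this group, at 241 and 218 (-0.15).

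Kinetochore and checkpoint genes had a median of -0.92 over 11 members. The kinetochore motor gene Cenpe read 344 and 148 (-1.22), and Cenpf, at 2.72 and 1.14, close to background, had a difference of -1.26 with a software error of 0.33. Spindle and cytokinesis genes had a median of -0.89 over 14 members, with a narrow range from -1.07 for Cit, citron kinase, to -0.66 for Hmmr. Mki67, the proliferation marker Ki-67, read 595.5 and 276 (-1.11, 2 of 2 probes), and topoisomerase gene Top2a 162 and 87.4 (-0.89). Securin, Pttg1, which holds separase in check, did not share the pattern, at 437 and 439 (0.0058, on 2 of 2 probes above 0). The transcription factors of this phase, Foxm1 and Mybl2, read 51.8 and 30.3 (-0.77) and 191 and 114 (-0.75).

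The G1 to S genes were less uniform, with a median of -0.29 over 18 members measured on both arrays. Of these, 15 were lower, beside 48.8% of all genes. E2f7, a repressor of the E2F family, read 60.3 and 28.5 (-1.08, with its other probe at -0.13), cyclin A2, Ccna2, 263 and 127 (-1.05), and cyclin E1, Ccne1, 670 and 351 (-0.93). The activator E2f1 read 98.2 and 58.9 (-0.74). The D cyclins, which answer to growth factors, were closer to 0 or above it, with Ccnd1 at 3336 and 3439 (0.04), Ccnd3 at 7080 and 6332 (-0.16) and Ccnd2 at 675 and 946 (0.49). E2f8 read 391 and 399 (0.03).

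Genes of cell cycle exit were level, with a median of 0.03 over 23 members, 10 below 0 and 13 above. The CDK inhibitor p21, Cdkn1a, which is induced as myoblasts differentiate, read 6034 and 7300 (0.27, with its other probe at 1.14), and p57, Cdkn1c, 7764 and 7502 (-0.05). Rb1 was at 772 and 789.5 (0.03), while its relative Rbl1, itself a gene of dividing cells, was at 46.4 and 26.8 (-0.79, 2 of 2 probes). Gadd45a, a stress and growth arrest gene, read 977 and 1685 (0.79). Among 18 p53 targets the median was 0.15 and 13 were above 0, beside 51.2% of all genes. Perp, a membrane protein gene of apoptosis and desmosomes, was the largest of them, at 11.5 and 62.1 (2.44), followed by the death genes Pmaip1, at 850 and 1506.5 (0.83), and Fas (0.74).

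Promoters of mitosis and replication genes are shown because both lists were lower as blocks and many of their promoters share short elements. The genes considered were mitosis genes with both a CHR element, the site of the DREAM and MuvB complexes, and a CCAAT box before the start. Some of these genes were skipped, and the 4 with the lowest differences among those left follow. Skipped genes with lower differences can therefore be absent. Sequences are from RefSeq (GRCm38.p6), 5′ to 3′ on the strand of the gene, and capitals mark CHR and CCAAT matches on either strand. They lie at chr7:135716457-135716582 (minus strand) for Mki67, chr15:102296234-102296286 (plus) for Espl1, the separase gene, chr2:118598008-118598117 (plus) for the checkpoint kinase gene Bub1b, and chr19:37376322-37376381 (plus) for the spindle motor gene Kif11.
Mki67: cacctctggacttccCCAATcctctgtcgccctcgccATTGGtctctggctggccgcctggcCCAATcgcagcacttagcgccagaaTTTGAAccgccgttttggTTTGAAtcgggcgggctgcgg
Espl1: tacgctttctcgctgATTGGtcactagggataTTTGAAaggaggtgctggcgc
Bub1b: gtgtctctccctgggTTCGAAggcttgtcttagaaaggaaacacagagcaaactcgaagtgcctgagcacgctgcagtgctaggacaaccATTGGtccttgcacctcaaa
Kif11: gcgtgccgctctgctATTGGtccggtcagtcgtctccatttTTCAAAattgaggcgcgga

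For DNA replication, the 4 lowest members with an E2F site before the start, after the same skips, are shown in the same way, with capitals on the E2F letters. They lie at chr11:98907998-98908035 (plus) for Cdc6, chr1:128359730-128359830 (minus) for Mcm6, chr8:75109341-75109382 (plus) for Mcm5 and chrX:93632271-93632308 (minus) for Pola1, which encodes the catalytic subunit of polymerase alpha.
Cdc6: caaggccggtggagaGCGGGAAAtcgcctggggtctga
Mcm6: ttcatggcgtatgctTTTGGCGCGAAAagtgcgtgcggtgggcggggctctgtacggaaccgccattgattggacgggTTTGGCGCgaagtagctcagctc
Mcm5: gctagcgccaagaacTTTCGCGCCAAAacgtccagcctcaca
Pola1: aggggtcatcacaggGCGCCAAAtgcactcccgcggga

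The shares of promoters with these letters were counted over the 300 bases that the RefSeq table gives for each start, 250 before and 50 after, on both strands. A CHR (TTTGAA or TTCGAA) was present in 29 of the 40 mitosis promoters found, or 72.5%, and a CCAAT box also in 29. Over the promoters of all 11745 measured genes found in the table, the shares were 14.1% and 38.2%. Both elements stood together in 26 mitosis promoters, 65.0%, beside 5.87% of all. An E2F site (TTTCGCGC, TTTGGCGC, TTTCCCGC or TTTGCCGC, which can overlap one another) was present in 13 of 32 replication promoters, 40.6%, beside 3.72% of all and 1 of 40 mitosis promoters. Among promoters of genes at least 2-fold lower on both arrays, a group that includes members of these lists, 23.4% of 171 held a CHR and 7.6% an E2F site, against 15.6% and 2.89% of 173 promoters of genes at least 2-fold higher. The shares of the mitosis and replication lists come from which genes were listed, whatever their day 2 differences, and are no support for those differences. A match of letters describes the promoter and shows no binding.

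Later days put the day 2 values in context. For the replication genes the median differences were -0.80, -0.34, -0.00027 and -0.28 on days 2, 4, 5 and 6, and for the mitosis genes they were -0.93, -1.06, 0.017 and -0.82. Of the 47 mitosis genes, 46, 46, 21 and 42 were below 0 on days 2, 4, 5 and 6, and of the 43 replication genes 43, 35, 22 and 33. Of all 20053 genes measured on both day 2 arrays, 9781, 10433, 11672 and 9035 were below 0 on those days. Both lists had medians near 0 on day 5. The later medians keep every member measured on day 2, among them Cdc6 and Ttk, which were well above background on 0 of the later arrays. Pcna was at -0.92 on day 2 and at -0.19, -0.05 and 0.14 on days 4, 5 and 6. Rrm2 was at -0.65 on day 2 and above 0 on the later days, at 0.72, 0.21 and 0.24. Cdk1 was at -1.24 on day 2 and at -1.60, -0.29 and -1.23 later.

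**Figure D3:**
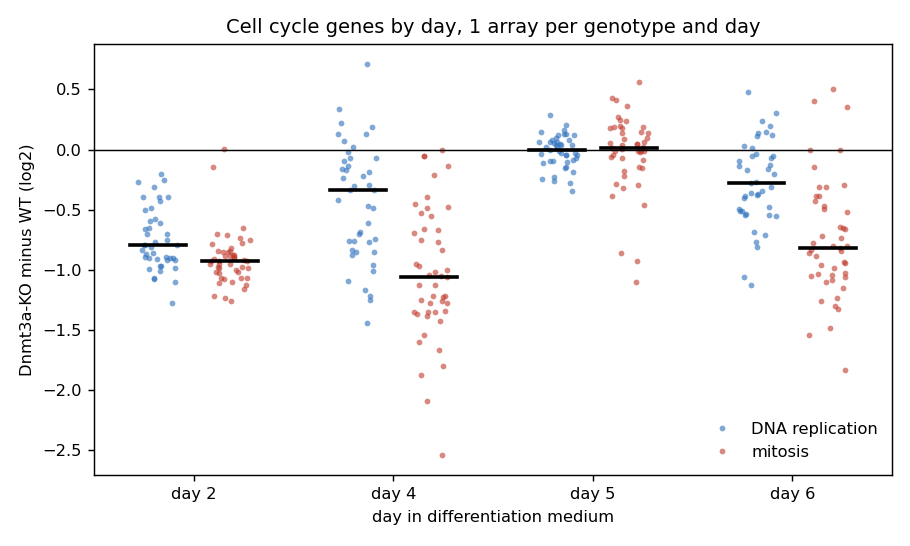
Dnmt3a-KO minus WT (log2) of the 43 replication genes (blue) and 47 mitosis genes (red) on each day, with the median of each list as a bar. The day 2 medians are -0.80 and -0.93, and both lists have medians close to 0 on day 5.

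The difference of day 2 from the later days was tested with limma over 19534 genes, with days 4 to 6 as replicates of the genotype difference. Each gene was detected above background on 4 or more of the 8 arrays and had a spot that was not an outlier on all 8. Genes measured on both day 2 arrays can therefore be absent from the fit. Each day brings its own pair of arrays, and day 2 is assumed to vary like the later days, which leaves 2 residual degrees of freedom. Of 86 replication and mitosis genes in the fit, 0 passed, beside 0.0102% of all genes, with limma adjusted p-values of 0.66 and above. At an unadjusted p under 0.05 there were 13 of 42 replication genes and 1 of 44 mitosis genes, beside 6.85% of all genes. Sarcomere genes had 9 of 42 at that level and 0 past the adjusted threshold. Where day 2 and later values are set side by side, no difference between them passed this test unless stated.

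The genes that start differentiation were level between genotypes on day 2. The median over 20 myogenic regulators was 0.00092, with 10 lower and 10 higher. MyoD, encoded by Myod1, read 2202 in WT and 2338 in Dnmt3a-KO (0.09), and its 7 usable spots overlapped between the arrays, from 1965 to 2334 in WT and from 2056 to 2507 in Dnmt3a-KO. Myog read 9052 and 9316 (0.04). The Mef2 factors, partners of the myogenic factors, lay between -0.03 for Mef2b and 0.33 for Mef2c. Outside this range were Myf6, the late myogenic factor Mrf4, at 136 and 289 (1.09), Eya2, a transcriptional cofactor, at 356 and 911 (1.35), and the Tead cofactor Vgll2, at 2329 and 1137 (-1.03). Eya2 was at -0.18, -0.89 and 0.02 on days 4, 5 and 6, so a difference of that size was not seen later.

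**Figure D4:**
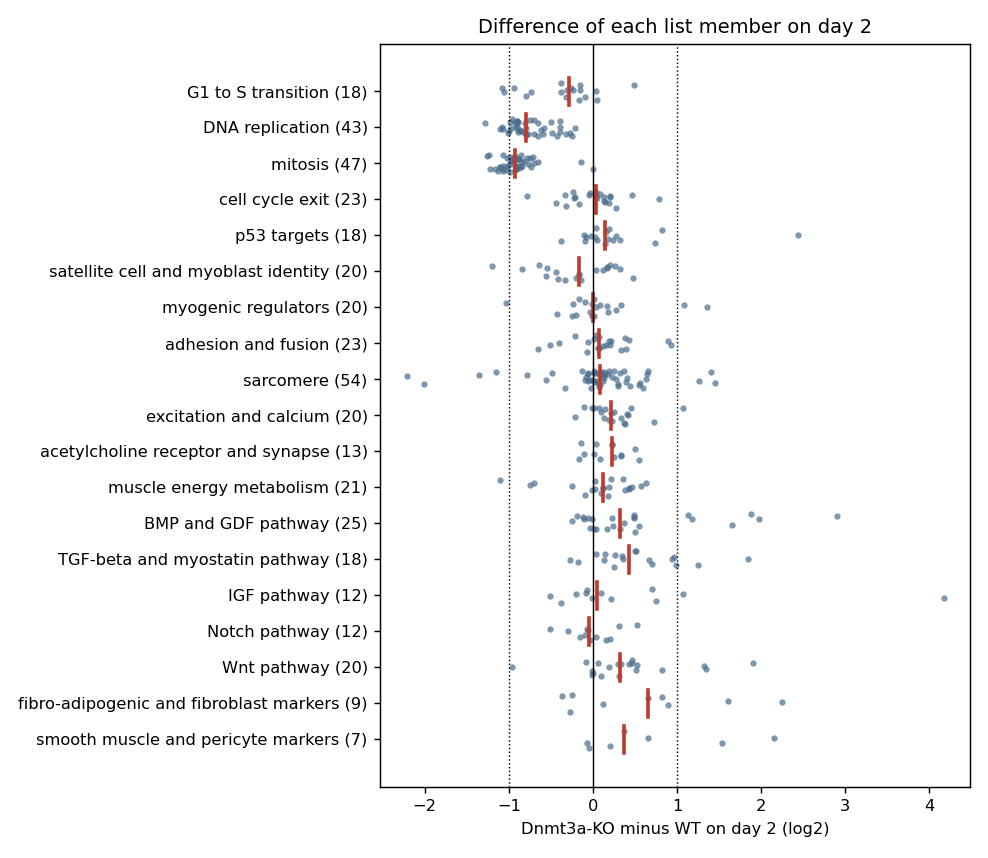
Dnmt3a-KO minus WT on day 2 (log2) for every member measured on both arrays of 19 gene lists, with list medians as red bars, dotted lines at 2-fold and the number of members in brackets. Replication and mitosis genes form the blocks on the left, with medians of -0.80 and -0.93, while the differentiation lists centre near 0 with single members far out.

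The sarcomere list had a median of 0.09 over 54 genes, with 38 above 0, beside 51.2% of all genes, but its parts differed. The 16 thin filament genes lay between -0.08 and 0.65 with a median of 0.13, and skeletal and cardiac alpha actin, Acta1 and Actc1, were at 0.05 and 0.01. Embryonic myosin, Myh3, the first heavy chain of new myotubes, read 21897 and 22141 (0.02), although 1 of its 2 probes had the other sign. Perinatal myosin, Myh8, read 13438 and 18221 (0.44, 2 of 2 probes). Among the adult fast genes, Myh4, the heavy chain of the fastest fibres, read 595 and 1579 (1.41), and Myh1 9013 and 11651 (0.37). The 6 fast myosin genes had a median of 0.17, with Myh13, a heavy chain of extraocular muscle, lowest at -0.49. The fast Z disc gene Myoz1 read 217 and 593 (1.45), and Mybpc2, the fast myosin binding protein, 12.2 and 29.2 (1.26). On later days Myh4 was at -1.01, -0.40 and 0.16 and Myoz1 at -0.33, 0.14 and 0.51. Neither gene had a later difference as large as that of day 2.

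Slow and cardiac myosins were lower, with a median of -1.36 over 5 genes. Myh7, the slow heavy chain, read 1194 in WT and 258 in Dnmt3a-KO, a 4.62-fold lower signal (-2.21). The slow light chain Myl2 read 63.7 and 15.8 (-2.01), Myh6, the alpha cardiac heavy chain, 10.5 and 4.11 (-1.36), and Myh7b 28.7 and 12.9 (-1.15). Myh6 and Myh7 have very similar sequences, so their probes may share signal. The light chain Myl3 was the member of this group that was not lower on day 2, at 25.03 and 32.9 (0.39), though it was at -1.93, -2.01 and -0.97 on days 4 to 6. The slow Z disc genes Myoz2 and Csrp3 were at -0.78 and -0.56. The slow troponins did not follow the myosins, with Tnnc1 at 0.10, Tnni1 at 0.13 and Tnnt1 at 0.30. Myh7 was also lower on each later day, at -1.98, -2.85 and -1.19, and Myh6 at -1.29, -1.47 and -1.38.

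**Figure D5:**
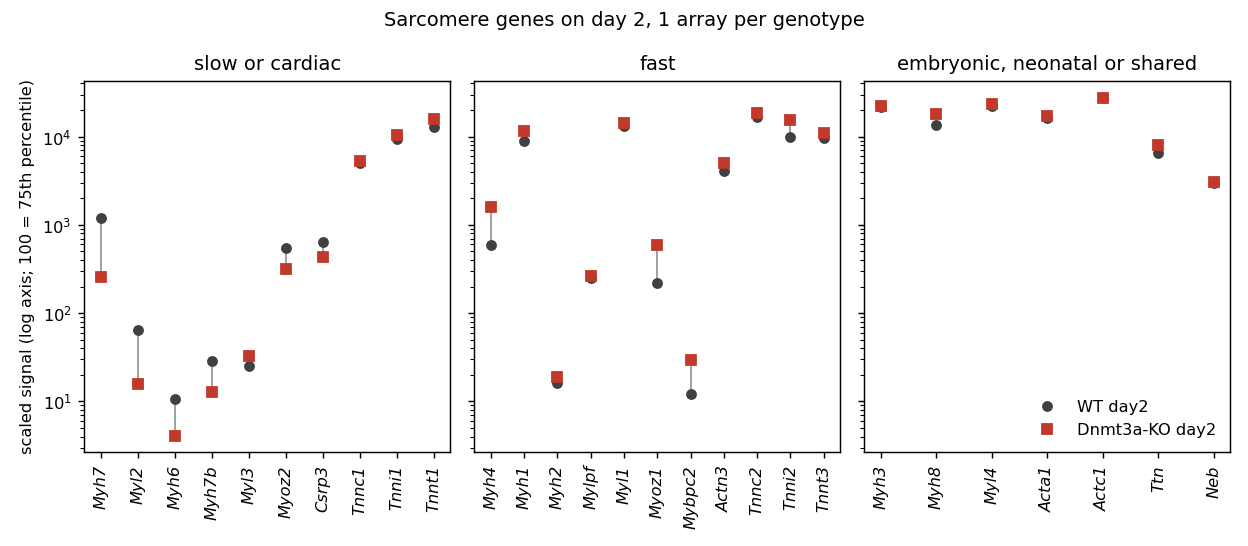
Scaled signal (log axis) of sarcomere genes on WT day2 (circles) and Dnmt3a-KO day2 (squares), 1 array each, grouped as slow or cardiac, fast, and embryonic, neonatal or shared. Myh7 is at 1194 in WT and 258 in Dnmt3a-KO and Myh4 at 595 and 1579, while Myh3, Acta1 and Actc1 lie on top of each other, and heights of different genes are not comparable since each probe has its own brightness.

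Sarcomere promoters looked unlike those of the cell cycle genes. An E-box (CAGCTG or CACCTG), the site of MyoD and myogenin, was present in 25 of 43, or 58.1%, beside 30.3% of all measured promoters, and a MEF2 site in 6, or 14%, beside 3.32%. Their median number of CpG sites was 5 in 300 bases, beside 19 over all measured promoters, 22.5 for replication and 23.5 for mitosis. Promoters of genes at least 2-fold higher and 2-fold lower in Dnmt3a-KO had medians of 11 and 14. A CpG count describes the sequence, and methylation was not measured here.

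The other groups of muscle differentiation leaned slightly upward in Dnmt3a-KO. Of 20 genes of excitation and calcium handling 17 were above 0, beside 51.2% of all genes, with a median of 0.22. Parvalbumin, Pvalb, a calcium buffer of fast fibres, read 103 and 217 (1.07, 2 of 2 probes), the calcium store gene Casq1 452 and 745 (0.72), and the release channel Ryr1 2033 and 2715 (0.42). The acetylcholine receptor and synapse list had a median of 0.22 over 13 genes and none past 1.5-fold, with Chrna1 at 0.25 (1 of 2 probes of that sign) and the receptor kinase Musk at 0.33. Of 11 glycogen and glycolysis genes 11 were above 0, with a median of 0.18, and the muscle phosphofructokinase Pfkm read 1560.5 and 2317 (0.57). Mitochondrial genes of muscle differed in sign, with the oxidase subunit Cox6a2 at 4010 and 2378 (-0.75) and mitochondrial creatine kinase, Ckmt2, at 79.3 and 36.9 (-1.10), against Cox7a1 at 0.43.

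Fusion genes were level or slightly higher. The fusogens myomaker, Mymk, and myomerger, listed as Gm7325, read 5341 and 5964 (0.16) and 7635 and 10010 (0.39). Of 23 adhesion and fusion genes, 17 were above 0, beside 51.2% of all genes, with a median of 0.08. The N-cadherin gene Cdh2 read 3072 and 3235 (0.07, with 1 of 2 probes of that sign). Boc, a co-receptor of promyogenic signalling, was lower at 11.7 and 7.45 (-0.65), and so was Dock1, an exchange factor for Rac, at -0.51. Boc belongs to a run of 7 lower neighbouring genes on chromosome 16 that is described below. Among satellite cell genes the median was -0.17, with 12 of 20 below 0, beside 48.8% of all genes. Sox8, a transcription factor of satellite cells, read 20.03 and 8.75 (-1.19), and the growth factor receptor Fgfr4 744 and 416 (-0.84, 2 of 2 probes), which was also lower on days 4 to 6, at -1.71, -1.32 and -1.45. Pax7 was at -0.41, whereas Pax3 was at 0.04 with its probes in disagreement.

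Ligands of the BMP family stood out among the signalling genes. Gdf5, a ligand known from joint and tendon formation, read 11.4 in WT and 85.3 in Dnmt3a-KO, a 7.46-fold higher signal (2.90), and its second probe had the same sign, at 2.38. At least 2-fold higher were 6 of the 25 BMP genes measured, beside 2.37% of all genes. Gdf7 read 3.92 and 12.4 (1.66), Gdf6 28.0 and 63.2 (1.18) and Bmp2 9.95 and 21.8 (1.13), while Bmp4 was at 2.02 and 1.78 (-0.19). BMP receptors and Smads lay between -0.12 and 0.32, with a median of -0.0055. Among BMP targets, Id4 read 23.3 and 92.0 (1.98), and Id1, Id2 and Id3 were at 0.48, 0.24 and 0.23. Gdf5 was also higher on the later days, at 2.57, 1.71 and 2.45, while Id4 was at -0.34, -0.18 and 0.07. The difference of Id4 between day 2 and the later days, 2.13, had a limma adjusted p of 0.43.

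The TGF-beta and activin list had 16 of 18 members above 0, beside 51.2% of all genes, and a median of 0.43. At least 2-fold higher were 2 of its members, beside 2.37% of all genes. The activin subunit Inhba read 24.8 and 88.9 (1.84), and Tgfb1 ran from 21.5 to 23.8 over its WT spots and from 34.9 to 40.1 over those of Dnmt3a-KO. The targets Tgfbi and Ccn2 were at 1.25 and 0.94, and myostatin, Mstn, a brake on muscle growth, at 231 and 237 (0.03). Ccn2 was at -1.25, 0.27 and -1.08 on days 4, 5 and 6. Of the Wnt list, 16 of 20 members were above 0, beside the same 51.2%, with a median of 0.32. Wnt10b and Wnt10a, ligands that restrain fat cell formation, read 7.02 and 26.3 (1.91) and 12.0 and 30.6 (1.35), and both were higher on days 4 to 6 as well. The receptor gene Fzd4 read 40.9 and 20.9 (-0.97). The target Lef1 was at 0.06 and Nkd1 at -0.0048, and Axin2 was well above background on neither array.

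Binding proteins of insulin-like growth factors held the largest increase measured on both arrays. Igfbp4, whose product binds the IGFs and limits their action, read 12.8 in WT and 231 in Dnmt3a-KO, an 18.03-fold higher signal (4.17) on 1 probe, on chromosome 11 at 98913334 to 98913393 (mm9). It was at 0.12, 1.37 and 0.40 on days 4, 5 and 6. Igfbp6 read 521 and 1098 (1.07), Igfbp2 261 and 440 (0.75) and Igfbp5 539 and 875 (0.70), against Igfbp3 at 310 and 239 (-0.38). The ligands Igf1 and Igf2 were at -0.20 and -0.0092 and the receptor Igf1r at -0.09. Notch genes were level, with a median of -0.05 over 12 members, and the target Heyl was the lowest at 61.9 and 43.6 (-0.51).

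Among other genes of DNA methylation, those tied to replication were lower. Uhrf1, which brings the maintenance enzyme to new DNA, read 388 and 219 (-0.83, 2 of 2 probes), and that enzyme, Dnmt1, 66.7 and 43.9 (-0.60). Dnmt3b, the other de novo enzyme, was at 15.3 and 13.4 (-0.19). The Tet genes, which oxidise methylated cytosine, lay between -0.30 for Tet3 and 0.21 for Tet1, of whose 3 probes 1 had that sign. Of 18 germline genes whose promoters are normally methylated, 13 were well above background on neither array, and the 4 seen on both lay between -0.14 and 0.26. Sycp3, a synaptonemal complex gene, was seen on the Dnmt3a-KO array alone, at least 1.55-fold higher, with a dim signal of 1.51.

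Imprinted genes had a median of 0.06 over 26 members but included a set from a common domain. The maternally expressed RNA Meg3 read 6130.5 in WT and 12004 in Dnmt3a-KO (0.97, 3 of 3 probes), and Dlk1, Mirg and Rtl1 of the same domain read 200 and 356 (0.83), 1454 and 2263 (0.64) and 1.14 and 2.89 (1.34). Plagl1, a regulator of other imprinted genes, read 1121.5 and 2116.5 (0.92), with its 4 probes between 0.04 and 0.92. Lower were Nnat, at 15.6 and 6.47 (-1.27), and Peg10, at 14.5 and 7.13 (-1.02). H19 and Igf2, which share a domain, were at 0.03 and -0.0092. Peg10 was lower on each later day, at -0.84, -1.28 and -1.11, while Nnat was at -0.53 and 0.33 on days 5 and 6, with 1 array well above background on day 4.

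Markers of other cell types moved in part. Of 14 markers of fibro-adipogenic cells and fibroblasts, 9 were measured on both arrays with a median of 0.66, and the summed signal of the list was 3649 in WT and 8992 in Dnmt3a-KO. Collagen I made most of that sum, with Col1a2 at 2454 and 7493 (1.61) and Col1a1 at 12.3 and 58.4 (2.25). Pdgfra, the receptor that defines these cells, was seen on the Dnmt3a-KO array alone, at 2.03, at least 2.08-fold higher, and decorin, Dcn, read 12.5 and 22.1 (0.82). Lum, Dpt and Dpp4 were well above background on neither array, and Tcf21 was seen in WT alone, at least 8.27-fold lower in Dnmt3a-KO. Ly6a and Col3a1 were slightly lower, at -0.25 and -0.27. Col1a1 and Col1a2 were lower on days 4 and 6, at -2.49 and -1.26 and at -1.61 and -0.91, and were at 0.21 and 0.05 on day 5.

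Smooth muscle and pericyte markers had 5 of 7 above 0, beside 51.2% of all genes, with a median of 0.37. Their summed signal was 17191 in WT and 18387 in Dnmt3a-KO. Pdgfrb, the pericyte receptor, read 2.20 and 9.84 (2.16) and the proteoglycan gene Cspg4 65.6 and 191 (1.54), while Acta2 was at 12046 and 11655 and Myh11, the defining smooth muscle myosin, was well above background on neither array. Some endothelial, macrophage and adipocyte defining genes were unseen, with Tek, Tie1, Cd68, Lyz2, Adipoq and Plin1 well above background on neither. Of 5 endothelial markers measured on both arrays 4 were above 0, with a median of 0.29, and Cldn5 read 19.3 and 48.2 (1.32). Above 0 were also 3 of 6 macrophage markers, with a median of -0.04, and 3 of 4 adipocyte markers, with a median of 0.08. The summed signals of the endothelial list were 322 and 401 and of the macrophage list 2081 and 2123. Of the Schwann cell and neural markers 5 of 7 were above 0, beside the same 51.2%, with a median of 0.44 and summed signals of 187 and 181. Myelin basic protein, Mbp, read 6.73 and 13.8 (1.03), the receptor Ngfr 15.9 and 22.4 (0.49), and Tubb3, a neuronal tubulin, 115 and 74.7 (-0.62). Cdh19 was seen on the Dnmt3a-KO array alone, at least 1.86-fold higher, and S100b on neither. The part that other cells had in the collagen, TGF-beta and cell cycle values was not tested.

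Matrix genes had no common direction, with a median of 0.02 over 22 members. The crosslinking enzymes Lox and Loxl1 read 1.48 and 4.42 (1.57, with the other probe at 0.64) and 393 and 826 (1.07, 2 of 2 probes). Basement membrane collagen IV went the other way, with Col4a1 at 291 and 148 (-0.97) and Col4a2 at 237 and 139 (-0.77). Every Col4a1 spot of Dnmt3a-KO, from 142 to 157, was below every WT spot, from 279 to 304. The stromelysin Mmp10 was seen on the Dnmt3a-KO array alone, at 6.05, at least 6.19-fold higher, and Mmp3, its neighbour in the genome, likewise at 2.30, at least 2.36-fold higher. The chemokine genes Ccl7 and Ccl2, which recruit monocytes, were 4.51-fold and 3.04-fold higher, at 5.27 and 23.8 and at 17.8 and 54.2, and Il6 was seen in Dnmt3a-KO alone, at 1.66. Of 8 interferon targets 6 were below 0, beside 48.8% of all genes, with a median of -0.14. The stress and atrophy lists had medians of 0.13 and 0.03.

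Beyond the lists, the largest higher signals were at dim probes. After Igfbp4 came Adgrd1, an adhesion receptor gene, at 1.16 and 9.57 (3.04, with a software error of 0.33), Gdf5, and Col10a1, the collagen of cartilage about to ossify, at 5.93 and 42.0 (2.82). The retinoic acid binding protein gene Crabp1 read 1.92 and 12.0 (2.64) and the signalling adaptor Sh2d2a 2.66 and 15.05 (2.50, with its other probe at 0.17). The hedgehog ligand Dhh read 1.17 and 6.56 (2.49), Myo7a 2.33 and 13.1 (2.48), Lrrc26 2.97 and 16.6 (2.48) and the chemokine receptor Ccr7 5.04 and 27.1 (2.43). P-selectin, Selp, had 10 spots that ran from 4.67 to 5.85 in WT and from 26.25 to 30.4 in Dnmt3a-KO. The pancreatic carboxypeptidase gene Cpa1, at 70.5 and 344 (2.29), was the brightest of these genes on both arrays. On each of the 3 later days Igfbp4, Gdf5 and Col10a1 were above 0.

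For some of the largest lower signals, other probes of the gene did not show a like difference. Med4, a subunit of the Mediator complex, read 262 in WT and 1.73 in Dnmt3a-KO (-7.25), on chromosome 14 at 73918025 to 73918084 (mm9), while its other probe was at -0.11. Raver1, an RNA-binding protein gene, read 2498 and 504 (-2.31), with 1 of 3 probes of that sign. Other lower genes were the tubulin gene Tuba3a at 9.32 and 1.11 (-3.06, or -1.36 as the mean of all its probes), the testis linker histone H1f6 at 10.4 and 1.33 (-2.96), and the phosphodiesterase genes Pde1a at 12.5 and 1.90 (-2.73) and Pde2a at 1284 and 310 (-2.05). The tachykinin gene Tac2 read 18.4 and 4.23 (-2.12) and the netrin receptor Unc5a 111 and 31.3 (-1.83). Pde2a and Unc5a were also below 0 on each later day, Pde2a at -1.14, -0.47 and -0.49. Pde1a was at -1.15 on day 5, when both arrays were well above background, and had 0 and 1 such arrays on days 4 and 6.

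Bounds were given by genes seen on 1 array. The largest lower one was Tmem39a, a membrane protein gene, at 77.9 in WT and not well above background in Dnmt3a-KO, at least 96.3-fold lower, with differences of -0.30, -0.06 and -0.36 on days 4, 5 and 6. Next were Ceacam11, Cdkl4 and the olfactory receptor Olfr360, at least 15.9-fold, 11.3-fold and 11.3-fold lower, with WT signals of 12.9, 9.13 and 9.11. The largest higher ones were Skint6, Ms4a5 and Agtr2, an angiotensin receptor gene, at least 11.2-fold, 10.6-fold and 9.36-fold higher, with Dnmt3a-KO signals of 10.96, 10.3 and 9.14.

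In the limma test of day 2 against days 4 to 6, 2 of 19534 genes passed, both lower. Med4 differed by -7.39 from the mean of the later days (limma adjusted p = 0.021) and Tmem39a by -6.43 (limma adjusted p = 0.037). The next gene had a limma adjusted p of 0.24. At an unadjusted p under 0.05 there were 1339 genes, against 977 expected by chance. Both calls were lost when day 4, 5 or 6 was left out and with the deposited value table. Across 18565 genes the day 2 differences had Pearson correlations of 0.18, 0.16 and 0.19 with those of days 4, 5 and 6, which use other arrays. Genes are not independent replicates, and the correlations are a description.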

How the data were processed

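RNA of 8 cultures was hybridised to 1-colour (Cy3) Agilent mouse arrays. The submitters' processing notes name Feature Extraction 9.5. Version 11.0.1.1 and a G2505C scanner gave the intensity values of both day 2 arrays, which share a slide, per the file headers, and 9.5.3.1 with a G2505B scanner those of days 4 to 6. The deposited value table holds a score, 100 times the processed intensity over the 75th percentile of all spots, rounded and with negative values at 0, and was used as an alternative.

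Processed intensity was divided by the 75th percentile of 43020 non-control spots, outlier spots were left out, and spots of a probe were averaged. The probe with the highest mean on both day 2 arrays stood for its gene. Of 39429 probes, 26055 were matched to RefSeq (GRCm38.p6) by accession, which updated 3358 symbols. A gene was called at 2-fold with its brighter array well above background. Medians of the 36 lists cover members well above background on both arrays. limma 3.58.1 in R 4.3.3 fitted day, genotype and the genotype difference of day 2, with values under 0.763 set to it and Benjamini-Hochberg adjustment. P-values measure the spread between these samples, which may be technical. The steps were tested on simulated data.

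Named were Dnmt3a, the 15 largest differences and 8 largest bounds in each direction, up to 4 members per list and direction past 1.5-fold, and genes past the limma threshold, 145 in all. Names without a symbol, 4 higher and 10 lower, were skipped. Other list members, genes at the 2-fold line and genes with replicate spots were named after their values were seen. Members and lists were chosen with earlier results of these data known. Alternatives were other scalings, normexp with an offset of 50, the score, the mean of all probes, outlier spots, fold thresholds, filters and days left out. In normexp, 0 to 39 spots per array whose background exceeded their signal were left out, a choice made after the fit did not settle with them. Some results are not reported here.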

Additional observations from a re-analysis of the deposited data

Results flagged for a closer look

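The genotype difference of Med4, a Mediator subunit, on day 2 departed from that of days 4 to 6 by -7.39 in a test of the difference itself (limma adjusted p = 0.021). Its differences were -7.25 on day 2 and 0.23, 0.04 and 0.16 on days 4, 5 and 6, and the other probe of the gene was at -0.11 on day 2. Tmem39a departed by -6.43 (limma adjusted p = 0.037), with a signal of 77.9 in WT and 0.165 in Dnmt3a-KO on day 2, the latter not well above background. Later differences of Tmem39a were -0.30, -0.06 and -0.36. Each rests on the signal of 1 probe on 1 Dnmt3a-KO array.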

How the results depend on the processing

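Counts of genes past the fold depended on background and filter. Against 511 genes at least 2-fold higher in Dnmt3a-KO on day 2 and 439 genes at least 2-fold lower in Dnmt3a-KO on day 2, the counts were 179 and 86 with normexp, 1006 and 755 with the deposited value table, 1297 and 1250 at 1.5-fold, 198 and 143 at 3-fold, 308 and 263 with both arrays well above background, and 130 and 123 above the median signal on both. The 145 named genes kept their direction under all 7 other scalings, backgrounds and probe rules, and of 102 past 2-fold 71 stayed past it with normexp. They were named largely for the size of their differences in these same data. A kept direction was therefore likely beforehand and is no support for them. The replication and mitosis medians lay between -0.84 and -0.73 and between -0.97 and -0.84 over 8 alternatives, and with both lists together normexp gave -0.79. With normexp the median was 0.56 for fibro-adipogenic, 0.11 for endothelial and 0.21 for cytokine genes. With the deposited value table it was 0.089 for acetylcholine receptor, 0.58 for endothelial and 0 for tendon, cartilage and bone genes. With the mean of all probes it was 0.076 for acetylcholine receptor and 0.16 for keratinocyte genes. With bounds included it was 0.51 for smooth muscle, 0.19 for endothelial, 0.18 for metalloproteinase and 0.42 for cytokine genes. With median scaling, the medians of myogenic regulators and matrix genes were just below 0, at -0.04 and -0.02, and so was that of cell cycle exit genes. The causes of these shifts were not tested.

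Against 2 genes past the limma threshold for day 2 against later days there were 6 with normexp, 1 with genes well above background on all 8 arrays, 0 with the deposited value table, and 0 to 0 without day 4, 5 or 6, which leaves 1 residual degree of freedom. No paired analysis was possible because the labels give no replicate numbers that link samples, other than pairing the genotypes by day, which the limma fit holds as a term. With 1 array per genotype, the day 2 values carry no spread between mice or cultures, and signals near background limit the dimmest genes.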

Other observations

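Genes that neighbour each other by their mm9 probe positions were scanned for runs in which each member was past 1.5-fold in a common direction on day 2. The longest lower run held 7 genes on chromosome 16, with first probe positions from 44221878 to 45183811: Usf3, Spice1, Boc, Nepro, Gtpbp8, Ccdc80 and Atg3. Their median difference was -1.01, and medians of these 7 on days 4, 5 and 6 were -1.05, -0.98 and -1.02. A second run of 4 lower genes lay on chromosome 16 from 45732034 to 45984108, with a median of -0.83 and Abhd10, Phldb2 and Plcxd2 among them. Lower genes of this region also lay outside the runs, such as Atp6v1a (-1.07) and Naa50 (-1.18) before the first and Cd200 (-0.64) between them. Other neighbours there were not past 1.5-fold, such as Gramd1c (0.18) and Btla (-0.17), and such genes ended the runs.

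The longest higher run held 5 genes on chromosome 12, from 110698721 to 110836685, with a median of 0.83. It began with Dlk1, Meg3 and Rtl1 of the imprinted domain described above and went on with a pair of RNA genes listed under clone names. A run of 4 on chromosome 6, from 129922234 to 130013175, held Klra22, Klra4 and Klra12, natural killer cell receptor genes with near-identical copies whose probes may share signal, with a median of 1.65. A further run of 4 on chromosome 1, from 136880597 to 137041106, held the Wnt pathway receptor gene Lgr6 and the phosphatase genes Ptprv and Ptpn7, with a median of 1.54. The runs were found by searching all genes, so their lengths have no test.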
